A study of Gallus gallus with 10 samples.

Results

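Among 10410 genes with a mean level of at least 5 CPM in the kidneys of broiler chickens, 65 were set apart in the birds fed 1.2% Ca: 34 lay higher and 31 lay lower in all 3 libraries at 1.2% Ca than in every one of the other 7 libraries. They were chosen by their measured values. CPM is the count of a gene at a library total scaled to 1000000 counts. A gene was taken when the 3 libraries at 1.2% Ca lay all above or all below the other 7, when the mean at 1.2% Ca and the mean of the other 7 differed at least 1.2-fold, and when the 3 libraries at 0.8% Ca were not likewise all apart. Because the values at 1.2% Ca chose the genes, every difference between 1.2% Ca and the other diets is given here as a description, without a test.

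The kidneys came from Ross 308 broilers at 21 days of age, from 3 birds fed 0.8% Ca, 4 birds fed 1.0% Ca and 3 birds fed 1.2% Ca, with 1 library per bird. The labels do not give the sex or the pen of each bird. The lane in the column headings put replicates 1 and 2 at 1.0% Ca and all libraries at 1.2% Ca in lane 1, and replicates 3 and 4 at 1.0% Ca and all libraries at 0.8% Ca in lane 2, so that 1.2% and 0.8% Ca cannot be told apart from lane, whereas 1.2% and 1.0% Ca can be compared within lane 1. The study's methods describe sequencing in a single lane, so that every comparison by lane here rests on the column headings and on the study's read table.

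The kidney of birds, as of other vertebrates, filters Ca from the blood and takes most of it back along the tubule, and the amount taken back is set by parathyroid hormone and vitamin D. Whole kidney holds tubule and glomerular cells, vessels and blood cells, so that a gene in bulk RNA may stand for any of these. Fewer cells of a type and less RNA per cell cannot be told apart in such libraries. Heterophils are the avian counterpart of neutrophils and carry granules with antimicrobial peptides, and dividing cells express the proteins of the mitotic apparatus.

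The count table gave 17108 Ensembl genes by identifier and position on Galgal4, without names. Names were taken from the study's own tables, which list genes called on these same birds, and they reached 154 identifiers. Only 3 of the 65 genes could be named in this way: GAL1, CDCA8 and cTR. That these 3 have a name is therefore not independent of their difference. The other 62 are given by identifier and position, without a role. Only 1 of the 27 tubule markers listed for this report could be identified by name, so that the kidney label was not checked against its markers. The libraries held between 6176553 and 7857813 counts, and a gene at 5 CPM received between 30.9 and 39.3 counts. The lowest count of any of the 65 genes in any library was 20. The values at 1.2% Ca below are in the order of replicates 1 to 3, those at 1.0% Ca in the order of 1 to 4 and those at 0.8% Ca in the order of 1, 3 and 4.

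The differences were modest. Of all genes at 5 CPM or more, 117 (1.12%) lay above and 64 (0.615%) lay below the other 7 libraries in all 3 libraries at 1.2% Ca, and 37 and 41 of these had means at least 1.2-fold apart. Of these, 2 genes on the higher side and 10 on the lower side were left out because 0.8% Ca was also apart, and 1 higher gene was left out by its identifier. Any 3 libraries set some genes apart, whatever the diet. The share that an order of libraries unrelated to diet would give was not computed. These counts alone can therefore not be read as a response to 1.2% Ca. Among the 34 higher genes, the mean at 1.2% Ca was between 1.20 and 2.63 times that of the other 7, with a median of 1.33, and 9 genes reached 1.5-fold. Among the 31 lower genes, the mean of the other 7 was between 1.21 and 1.97 times that at 1.2% Ca, with a median of 1.35, and 10 genes reached 1.5-fold.

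The gap between the nearest libraries of the 2 sides was narrow. It had a median of 1.04-fold in both sets, it was under 5% in 18 of the 34 higher and 17 of the 31 lower genes, and it was larger than its own counting standard error in 6 higher and 2 lower genes. In most of these genes, then, the order of the libraries on which the choice rests lay within counting error at its narrowest point. The widest gaps were 1.29-fold in ENSGALG00000010958 among the higher and 1.22-fold in ENSGALG00000005549 among the lower genes. Just inside the CPM minimum were ENSGALG00000010926 at a mean of 5.01 and ENSGALG00000009067 at 5.39 CPM, and just outside were ENSGALG00000008188 at 4.82 and ENSGALG00000012292 at 4.26 CPM. Just inside the fold minimum were ENSGALG00000016783 at 1.203-fold and ENSGALG00000009422 at 1.206-fold, and just outside were ENSGALG00000003187 at 1.199-fold and ENSGALG00000008315 at 1.196-fold.

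**Figure D1:**
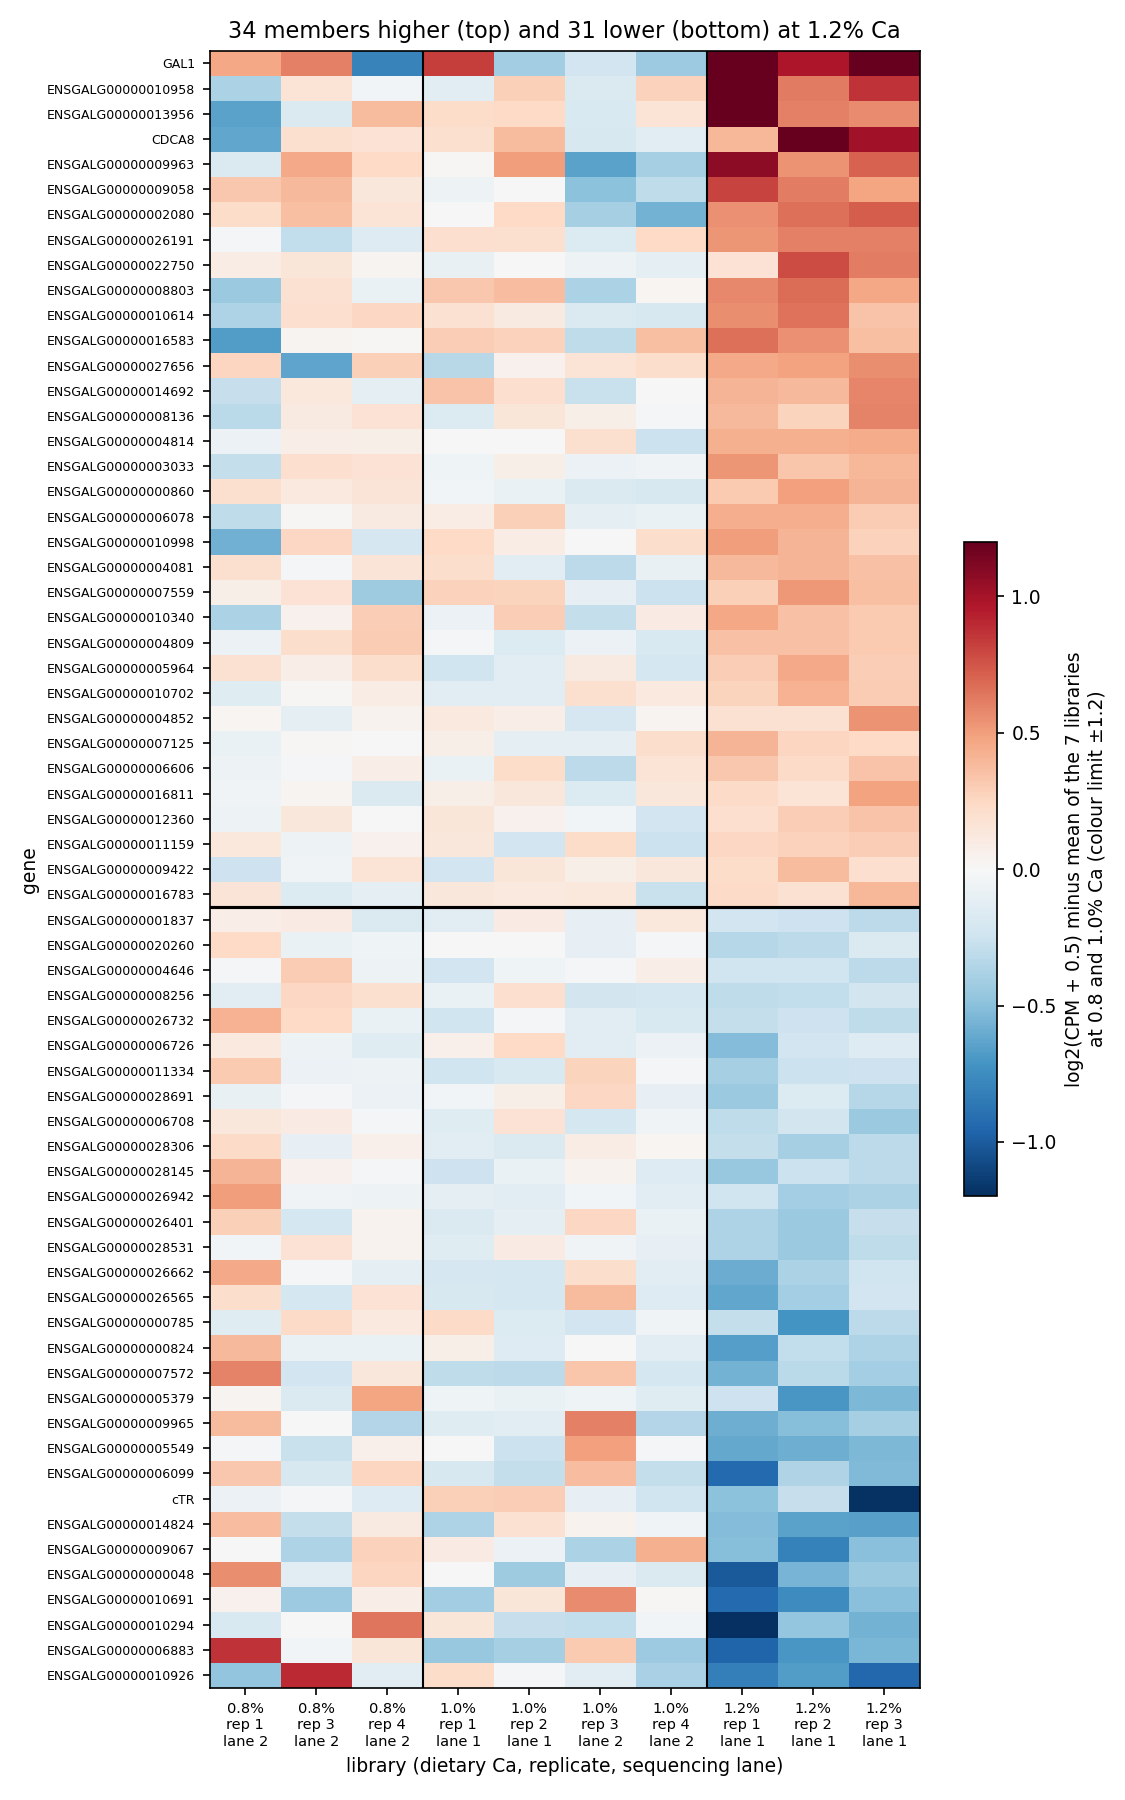
All 65 genes (rows) in the 10 libraries (columns, by dietary Ca, replicate and lane), as log2(CPM + 0.5) minus the gene's mean over the 7 libraries at 0.8 and 1.0% Ca. Red is higher and blue lower, with colours cut at 1.2. The 34 higher genes are red and the 31 lower genes blue in all 3 libraries at 1.2% Ca, which the choice of genes fixed. The other 7 libraries show mixed colours. In some genes, such as ENSGALG00000026732 in replicate 1 at 0.8% Ca, these are stronger than the colours at 1.2% Ca.

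GAL1 had the largest ratio of the 65 genes. GAL1 (ENSGALG00000022815, chr3:107083700-107086143, minus strand) encodes gallinacin 1, also called avian beta-defensin 1, an antimicrobial peptide of heterophil granules. Its level was 37.7, 41.6 and 15.4 CPM at 0.8% Ca, 48.9, 20.2, 23.1 and 19.97 CPM at 1.0% Ca, and 103, 54.0 and 76.7 CPM at 1.2% Ca. The lowest library at 1.2% Ca lay 1.104-fold above replicate 1 at 1.0% Ca, and the other 6 libraries lay further below. The mean was 77.8 ± 24.3 CPM at 1.2% Ca (SD, n = 3) and 29.6 ± 12.96 CPM over the other 7 (SD, n = 7), a ratio of 2.63, and the mean of the 2 libraries at 1.0% Ca in the same lane was 34.6 CPM, a ratio of 2.25.

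The neighbour of GAL1 followed it closely. GAL2 (ENSGALG00000016669, chr3:107081012-107082273), a related defensin gene that ends 1426 bases away, is not among the 65 because replicate 2 at 1.2% Ca, with 45.9 CPM, lay below replicate 1 at 1.0% Ca, with 48.9 CPM. LECT2, a secreted chemotactic protein, also had that pair of libraries crossed, with 181 CPM in replicate 2 at 1.2% Ca and 188 CPM in replicate 1 at 1.0% Ca. GAL1, GAL2 and LECT2 were each highest in replicate 1 and lowest in replicate 2 among the libraries at 1.2% Ca. The other 6 of the 9 nameable genes of a heterophil and myeloid list, among them SPI1 (a myeloid transcription factor), LY86 and Nox2 (a subunit of the phagocyte oxidase), were instead each highest in replicate 3 and lowest in replicate 1. Relative to their mean over the 10 libraries, replicate 1 at 1.2% Ca stood at 2.33 for GAL1 and at a median of 0.492 for those 6 genes. All 9 had a higher mean at 1.2% Ca than over the other 7 libraries, but only GAL1 did not overlap, and the list was nameable only through genes that the study called on these birds. In Ex-FABP (813 against 768 CPM) and MYO1F (92.0 against 90.7 CPM) the mean at 0.8% Ca was above that at 1.2% Ca. How many of all genes had a higher mean at 1.2% Ca was not counted. The summed level of the 9 genes ranged from 958 to 1943 CPM at 0.8% Ca, from 708 to 962 CPM at 1.0% Ca and from 1111 to 2813 CPM at 1.2% Ca. The part of blood or tissue leukocytes in the level of GAL1 was not tested.

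CDCA8 was also higher at 1.2% Ca. CDCA8 (ENSGALG00000022145, positions 98 to 4230 of the unplaced scaffold AADN03023297.1, minus strand) encodes borealin, a subunit of the chromosomal passenger complex, which acts at centromeres and in cytokinesis during mitosis. Its level was 27.4, 48.5 and 48.0 CPM at 0.8% Ca, 48.6, 55.6, 37.2 and 38.9 CPM at 1.0% Ca, and 56.0, 105 and 86.2 CPM at 1.2% Ca. Replicate 1 at 1.2% Ca lay only 1.01-fold above replicate 2 at 1.0% Ca, while the other 2 libraries at 1.2% Ca were at 86.2 CPM or more. The mean was 82.4 ± 24.7 CPM at 1.2% Ca (SD, n = 3) and 43.4 ± 9.48 CPM over the other 7 (SD, n = 7), a ratio of 1.90. Against the 2 libraries at 1.0% Ca in lane 1, with a mean of 52.1 CPM, the ratio was 1.58.

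Among the 3 libraries at 1.2% Ca, CDCA8 did not follow the other cell cycle genes. Of 25 genes on a cell cycle list, 24 could be named. All 24 had a higher mean at 1.2% Ca than over the other 7 libraries, but only CDCA8 did not overlap. The share of all genes with a higher mean was not counted. All 10 nameable interferon-induced genes also had a higher mean than over the other 7, and all 5 immediate early genes a lower one, none of them apart. Of these, RSAD2, HELZ2, EIF2AK2 and TLR3 had a still higher mean at 1.0% Ca, and ATF3 had a ratio of 0.996. The endothelial genes APOLD1 and APLNR had a lower mean, neither apart. A gene matched to the name KLF2 had another identifier than KLF2 in the study's edgeR results and is not counted. Other lists went both ways, such as smooth muscle and fibroblast with 3 higher and 2 lower genes. At 1.2% Ca, 23 of the 24 cell cycle genes were highest in replicate 1. CDCA8 alone was highest in replicate 2 and lowest in replicate 1. Relative to the mean over the 10 libraries, replicate 1 at 1.2% Ca was at 1.02 for CDCA8 and at a median of 1.70 for the 23 others, and replicate 3 was at 1.56 for CDCA8 and at a median of 0.931 for the others. Over the 7 libraries at 0.8 and 1.0% Ca, CDCA8 stood in nearly the same order as the median of the 23 others. Only replicate 4 at 1.0% Ca and replicate 4 at 0.8% Ca were exchanged. In CDCA8, replicate 1 at 1.0% Ca and replicates 3 and 4 at 0.8% Ca were nearly tied, at 48.6, 48.5 and 48.0 CPM, so that their order carries little weight. All 24 genes were lowest there in replicate 1 at 0.8% Ca, at 0.496 for CDCA8 and a median of 0.217 for the others. The summed level of the 24 genes ranged from 428 to 1751 CPM at 0.8% Ca, from 1071 to 2296 CPM at 1.0% Ca and from 1718 to 3049 CPM at 1.2% Ca. These genes, too, could be named only because the study called them on these birds.

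**Figure D2:**
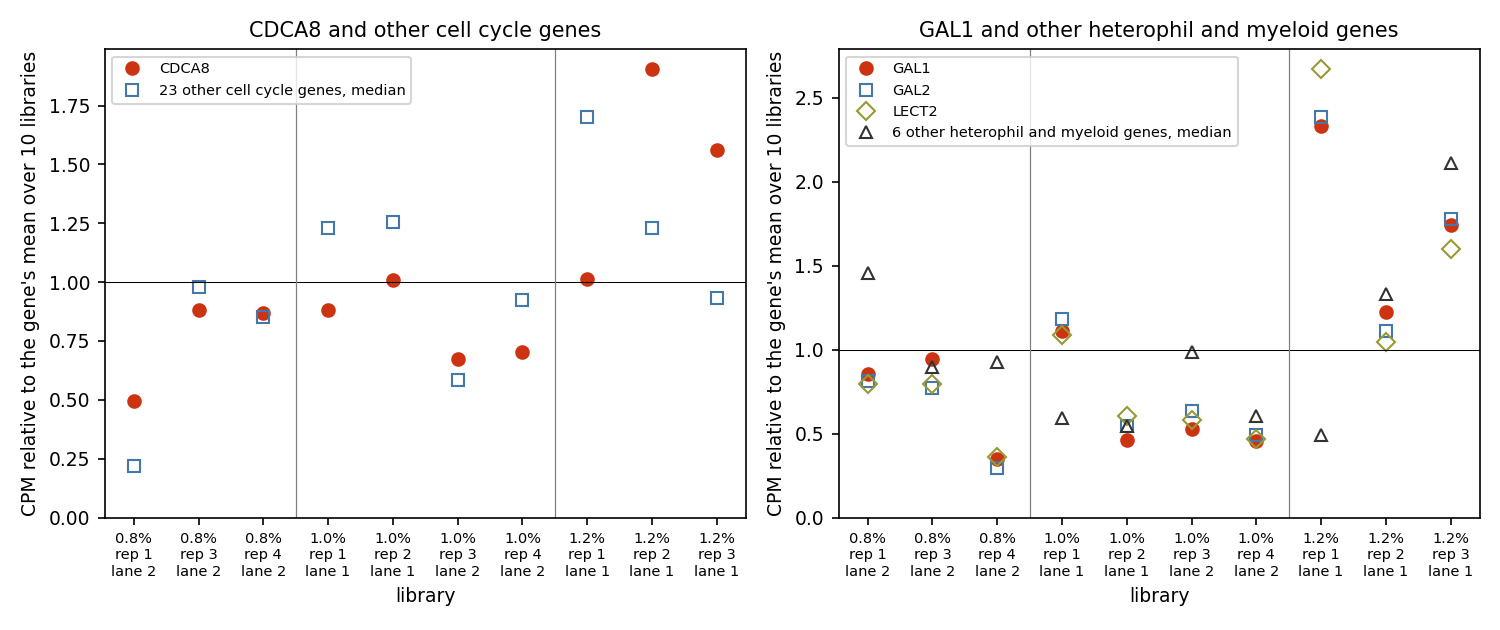
CPM of each gene divided by its mean over the 10 libraries, for CDCA8 and the median of 23 other cell cycle genes (left) and for GAL1, GAL2, LECT2 and the median of 6 other heterophil and myeloid genes (right), with libraries by dietary Ca, replicate and lane on the horizontal axis. Replicate 1 at 1.2% Ca is at 1.02 for CDCA8 against 1.70 for the other cell cycle genes, and at 2.33 for GAL1 against 0.492 for the 6 other heterophil and myeloid genes.

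The third named gene was lower at 1.2% Ca. cTR (ENSGALG00000011294, chr2:37844468-37965174, minus strand) had 23.5, 24.5 and 22.2 CPM at 0.8% Ca, 30.2, 30.4, 23.1 and 20.9 CPM at 1.0% Ca, and 17.4, 20.4 and 10.6 CPM at 1.2% Ca. Replicate 2 at 1.2% Ca and replicate 4 at 1.0% Ca were 1.03-fold apart, while replicate 3 at 1.2% Ca was far below all others. The mean was 16.1 ± 5.03 CPM at 1.2% Ca (SD, n = 3) and 24.97 ± 3.82 CPM over the other 7 (SD, n = 7), a ratio of 1.55 of the 7 over 1.2% Ca. Within lane 1 the mean at 1.0% Ca was 30.3 CPM, which was 1.88 times that at 1.2% Ca.

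Some of the largest ratios on the higher side rested on replicate 1. ENSGALG00000010958 (chr1:40131212-40428161) had 3.56, 5.41 and 4.66 CPM at 0.8% Ca, 4.34, 5.94, 4.18 and 5.90 CPM at 1.0% Ca, and 16.1, 7.66 and 9.16 CPM at 1.2% Ca. ENSGALG00000013956 (chr3:54967896-54990656) had 3.24, 4.66 and 7.06 CPM at 0.8% Ca, 6.28, 6.36, 4.63 and 6.03 CPM at 1.0% Ca, and 15.03, 8.38 and 8.14 CPM at 1.2% Ca. In both genes replicate 1 at 1.2% Ca stood well above replicates 2 and 3, and the ratios of 2.26 and 1.92 were 1.73 and 1.51 without it. ENSGALG00000009963 (chr1:35383275-35387002) was likewise highest in replicate 1, with 20.3, 13.9 and 15.7 CPM at 1.2% Ca against 13.4 CPM in the nearest of the other 7, and had a ratio of 1.70.

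Several of the other higher genes were even across the birds at 1.2% Ca, and 3 of them are described here. ENSGALG00000002080 (chr13:3332166-3492561), the most abundant of the higher genes in CPM, had 141, 156 and 136 CPM at 0.8% Ca, 121, 143, 92.1 and 82.0 CPM at 1.0% Ca, and 178, 193 and 201 CPM at 1.2% Ca. Its mean was 191 ± 11.8 CPM at 1.2% Ca (SD, n = 3) and 125 ± 27.8 CPM over the other 7 (SD, n = 7), a ratio of 1.53, and its lowest group was 1.0% Ca. ENSGALG00000004814 (chr11:9471253-9488757) had 80.9, 80.9 and 81.6 CPM at 1.2% Ca, against between 49.99 and 68.3 CPM in the other 7, a gap of 1.18-fold and a ratio of 1.35. ENSGALG00000026191, on the unplaced scaffold JH375192.1, had 7.78, 8.23 and 8.27 CPM at 1.2% Ca, against between 4.204 and 6.30 CPM in the other 7, with a gap of 1.24-fold. Less even, ENSGALG00000009058 (chr17:402427-410036) had 12.5, 10.8 and 9.80 CPM at 1.2% Ca, against between 4.77 and 9.16 CPM in the other 7, a ratio of 1.57. The next ratios were 1.501 in ENSGALG00000022750, 1.47 in ENSGALG00000008803 and 1.43 in ENSGALG00000010614.

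Among the lower genes, ENSGALG00000010926 (chr4:45074192-45077215) had the largest ratio, 1.97, at the lowest level. It had 3.89, 10.8 and 5.08 CPM at 0.8% Ca, 6.60, 5.52, 5.07 and 4.15 CPM at 1.0% Ca, and 2.95, 3.32 and 2.67 CPM at 1.2% Ca, which were 22, 23 and 21 counts. Replicate 3 at 0.8% Ca stood apart on the high side, and without it the ratio was 1.69. ENSGALG00000006883 (chr18:9538392-9542529) had 36.4, 19.4 and 21.9 CPM at 0.8% Ca, 14.3, 14.9, 24.8 and 14.5 CPM at 1.0% Ca, and 9.93, 11.99 and 13.4 CPM at 1.2% Ca. Its means stood in the order of the diets, with 25.9 CPM at 0.8% Ca, 17.1 CPM at 1.0% Ca and 11.8 CPM at 1.2% Ca (SDs of 9.21, 5.12 and 1.73 CPM over 3, 4 and 3 birds), and within lane 1 the libraries at 1.0% Ca were only 1.24 times those at 1.2% Ca.

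ENSGALG00000005549 (chr19:8743459-8748278) was even across the 3 birds at 1.2% Ca, with 23.5, 19.8 and 25 CPM at 0.8% Ca, 24.0, 19.9, 33.7 and 23.7 CPM at 1.0% Ca, and 15.4, 15.7 and 16.3 CPM at 1.2% Ca. The ratio of the other 7 over 1.2% Ca was 1.53. ENSGALG00000010294 (chr5:37387519-37391470) had 3.09, 5.63 and 5.22 CPM at 1.2% Ca, against between 6.42 and 12.7 CPM in the other 7, a ratio of 1.76. The most abundant gene of the lower set per kilobase of exon was ENSGALG00000020260 (chr4:16569551-16575007), with 147, 150 and 165 CPM at 1.2% Ca, against between 174 and 220 CPM in the other 7, and a ratio of 1.21. ENSGALG00000000048, ENSGALG00000009067, ENSGALG00000014824 and ENSGALG00000006099 had ratios of 1.68, 1.62, 1.59 and 1.54.

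**Figure D3:**
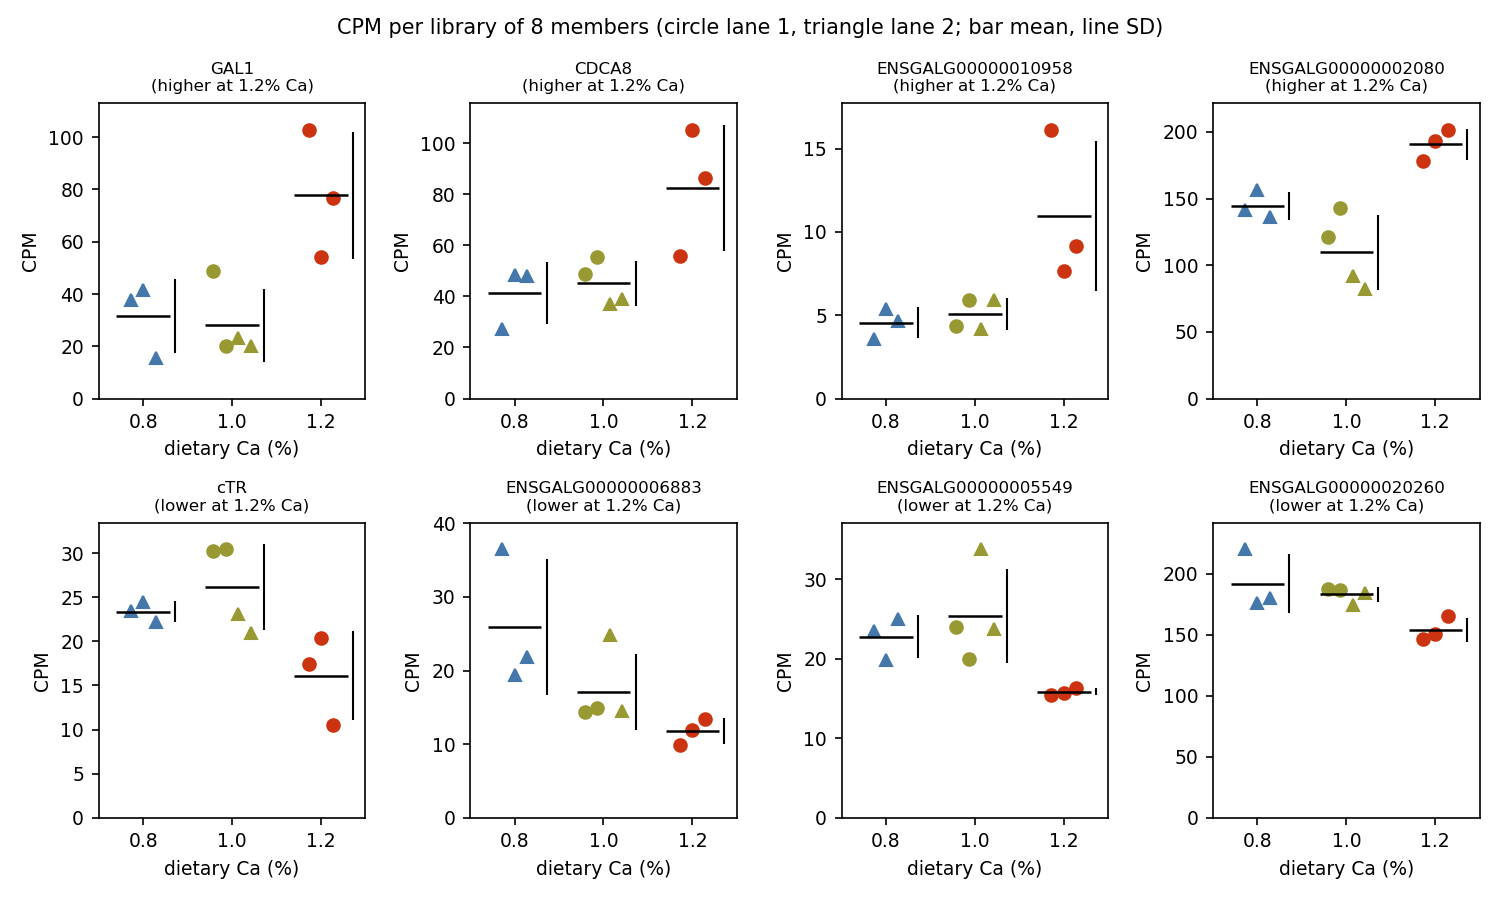
CPM in each library of 4 higher genes (top) and 4 lower genes (bottom), by dietary Ca, with circles for lane 1, triangles for lane 2, a bar for the mean and a line for the SD of each group. Each axis starts at 0. GAL1, CDCA8 and ENSGALG00000010958 vary widely among the 3 birds at 1.2% Ca, whereas ENSGALG00000002080 (178 to 201 CPM) and ENSGALG00000005549 (15.4 to 16.3 CPM) are even.

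Per kilobase of exon, the level over the 10 libraries was highest in GAL1, at 89.1 CPM per kilobase, followed by ENSGALG00000020260 at 72.3, ENSGALG00000028306 at 70.3, ENSGALG00000026565 at 69.1, CDCA8 at 64.0, ENSGALG00000011334 at 63.3, ENSGALG00000026401 at 53.6, ENSGALG00000010702 at 43.6 and ENSGALG00000000860 at 40.6 CPM per kilobase, and the fifth of the higher genes was ENSGALG00000016811 at 32.2 CPM per kilobase. The 65 genes were less abundant and shorter than the rest. The median level was 17.5 CPM in the higher and 22.3 CPM in the lower genes, against 43.2 CPM over all 10410 genes, and the median exon length was 1944 and 1871 bases, against 2421 bases. Lower counts bring a larger counting error. The spread inside 1.2% Ca was also small in these genes, with a median coefficient of variation of 7.20% in the higher and 8.60% in the lower genes against 11.5% over all genes, which the choice of genes favours.

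The 65 genes were spread over the genome. Chromosome 1 held 9 of them, chromosome 3 held 6 and chromosome 4 held 5, and 3 higher and 3 lower genes lay on unplaced scaffolds (8.82% and 9.68%, against 3.48% of all genes). In only 1 case were 2 of them next to each other. ENSGALG00000010691 (chr3:34077463-34104237, minus strand), a lower gene, and ENSGALG00000010702 (chr3:34116278-34136305, plus strand), a higher gene, point away from each other with 12040 bases and 0 counted genes between. ENSGALG00000010691 had 4.03, 4.62 and 5.60 CPM at 1.2% Ca, against between 5.86 and 12.2 CPM in the other 7. ENSGALG00000010702 had 62.7, 69.3 and 64.1 CPM at 1.2% Ca, against between 46.8 and 59.2 CPM in the other 7. The pair thus stood on opposite sides at 1.2% Ca. For 15 of the 65 genes the annotated span overlaps another counted gene, on the other strand in 11 and on the same strand in 4. These spans include introns, and overlap of exons was not examined. Where exons overlap, reads cannot be assigned with certainty. The counting used no strand option, which bears on genes overlapped on the other strand, such as ENSGALG00000002080. A strand option would not separate genes overlapped on the same strand, such as ENSGALG00000010926.

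The libraries at 0.8 and 1.0% Ca show how these genes behave at the other diets. The comparison of 1.0% with 0.8% Ca was tested over all 12187 genes that passed the low-count filter, which included all 65, with edgeR's quasi-likelihood test. It is not wholly free of the choice. The fit estimated the spread of each gene from all libraries, including those at 1.2% Ca, where the choice favours a small spread. The p-values of the 65 genes therefore rest in part on values that chose them. In addition, genes with 0.8% Ca apart were left out. On the higher side this removed genes with all libraries at 0.8% Ca below all at 1.0% Ca. On the lower side it removed genes with all libraries at 0.8% Ca above all at 1.0% Ca. In each set, genes that differed the opposite way without overlap were kept. At an adjusted p under 0.05, 0 genes (0%) were called, and 0 of the 65. At an unadjusted p under 0.05, 322 genes (2.64%) were higher and 712 (5.84%) lower at 1.0% Ca. The edgeR likelihood ratio test called 22 genes, DESeq2 31 and limma-voom 0, none of them among the 65.

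Of the 34 higher genes, 0 were higher and 4 lower at 1.0% than at 0.8% Ca at an unadjusted p under 0.05, and of the 31 lower genes 0 were higher and 1 lower, all with an adjusted p of 0.433 or more. The choice had removed higher genes with 1.0% Ca wholly above 0.8% Ca, so the split of the 34 was partly fixed in advance. Without overlap, 0 of the 34 stood above, which the choice fixed. Below stood 3 (8.82%), against 7.28% of all genes at 5 CPM or more. The smallest adjusted p was that of ENSGALG00000000860, with 59.4, 57.4, 54.0 and 53.3 CPM at 1.0% Ca and 69.8, 66.2 and 67.9 CPM at 0.8% Ca. These groups do not overlap, and the log2 difference was -0.26 (SE 0.08, edgeR adjusted p = 0.433). With 75.6, 85.9 and 80.9 CPM at 1.2% Ca, this gene was lowest at the middle diet. In all, 14 of the 34 higher genes had their lowest group mean at 1.0% Ca, a share that leaving out genes with 0.8% Ca apart favours. Among the others of these were ENSGALG00000009058, ENSGALG00000002080 and ENSGALG00000005964, with log2 differences of -0.50, -0.39 and -0.26. All libraries at 0.8% Ca were in lane 2, and with lane as a covariate the edgeR difference of ENSGALG00000002080 was -0.71, that of ENSGALG00000009058 -0.70 and that of ENSGALG00000005964 -0.18. That fit called 0 genes at an adjusted p under 0.05 and had 1302 at an unadjusted p under 0.05. The lower gene of the 5, ENSGALG00000026732, differed by -0.34, with 44.9, 52.2, 48.0 and 46.8 CPM at 1.0% Ca and 70.8, 62.8 and 50.1 CPM at 0.8% Ca. The named genes differed by -0.16 (GAL1), 0.14 (CDCA8) and 0.18 (cTR) between 1.0 and 0.8% Ca on the log2 scale, with edgeR adjusted p-values of 0.930, 0.890 and 0.821.

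The order of the 3 diets was counted in each set. Among the higher genes the median log2 difference of 1.0% minus 0.8% Ca, on the scale of log2(CPM + 0.5), was 0.02, and the group means stood in the order of the diets in 20 of 34 genes. Among the lower genes it was -0.12, and the means stood in the order of the diets in 24 of 31. Over all 10410 genes the median was 0.00, and the means stood in ascending order of Ca in 21.9% and in descending order in 19.0% of genes, shares that do not require 1.2% Ca to be apart as the choice of the 65 does. The choice also left out 2 higher and 10 lower genes with 0.8% Ca apart. In such genes the 3 diets do not overlap and stand in order. The shares over all genes include them. The median of the lower genes leaned on a single bird. Without replicate 1 at 0.8% Ca it was -0.03. The difference between the sets was not tested.

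Lane was compared within 1.0% Ca, the only diet with libraries in both lanes. Each bird was in 1 lane only, with 2 birds per lane, so that lane cannot be told apart from differences between these birds. With edgeR's quasi-likelihood test, 0 genes (0%) had an adjusted p under 0.05 between lane 1 and lane 2, and at an unadjusted p under 0.05 there were 355 higher (2.91%) and 548 lower (4.50%) in lane 1. The edgeR likelihood ratio test called 1 gene, DESeq2 13 and limma-voom 0. Of the 34 higher genes, 27 had a higher mean in lane 1 than in lane 2 at 1.0% Ca (79.4%, against 56.1% of all genes), and their median log2 difference was 0.17, against 0.04 over all genes. That median was between 0.08 (without replicate 3) and 0.29 (without replicate 4) when 1 of the 4 libraries was left out. In the lower genes the median was -0.05, and 12 of 31 were higher in lane 1.

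Among single genes, 4 of the 34 higher genes were higher and 1 lower in lane 1 at an unadjusted p under 0.05, and of the 31 lower genes 0 were higher and 1 lower. The strongest was ENSGALG00000002080, with 121 and 143 CPM in lane 1 and 92.1 and 82.0 CPM in lane 2 at 1.0% Ca, a log2 difference of 0.58 (SE 0.12, edgeR adjusted p = 0.649). DESeq2 gave it an adjusted p of 0.0484, and it was the only one of the 65 that any of these tools called. ENSGALG00000009963, ENSGALG00000008803 and ENSGALG00000014692 differed by 0.82, 0.50 and 0.38 in the same direction. ENSGALG00000010702 differed by -0.32 and the lower gene ENSGALG00000011334 by -0.37. In the first 4 of these and in ENSGALG00000011334, lane 1 at 1.0% Ca stood nearer to 1.2% Ca than lane 2 did. All libraries at 1.2% Ca share lane 1. In ENSGALG00000010702, lane 2 at 1.0% Ca stood nearer. Within lane 1 alone, the median log2 difference of 1.2% minus 1.0% Ca was 0.38 in the higher and -0.34 in the lower genes, against 0.00 over all genes, and against lane 2 at 1.0% Ca it was 0.48 and -0.42, against 0.04. The sign in both lanes was fixed by the choice of genes. The edgeR fit for the lanes also estimated the spread of each gene from all libraries, including those at 1.2% Ca. The p-values of the 65 genes between the lanes are therefore not wholly free of the choice either.

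**Figure D4:**
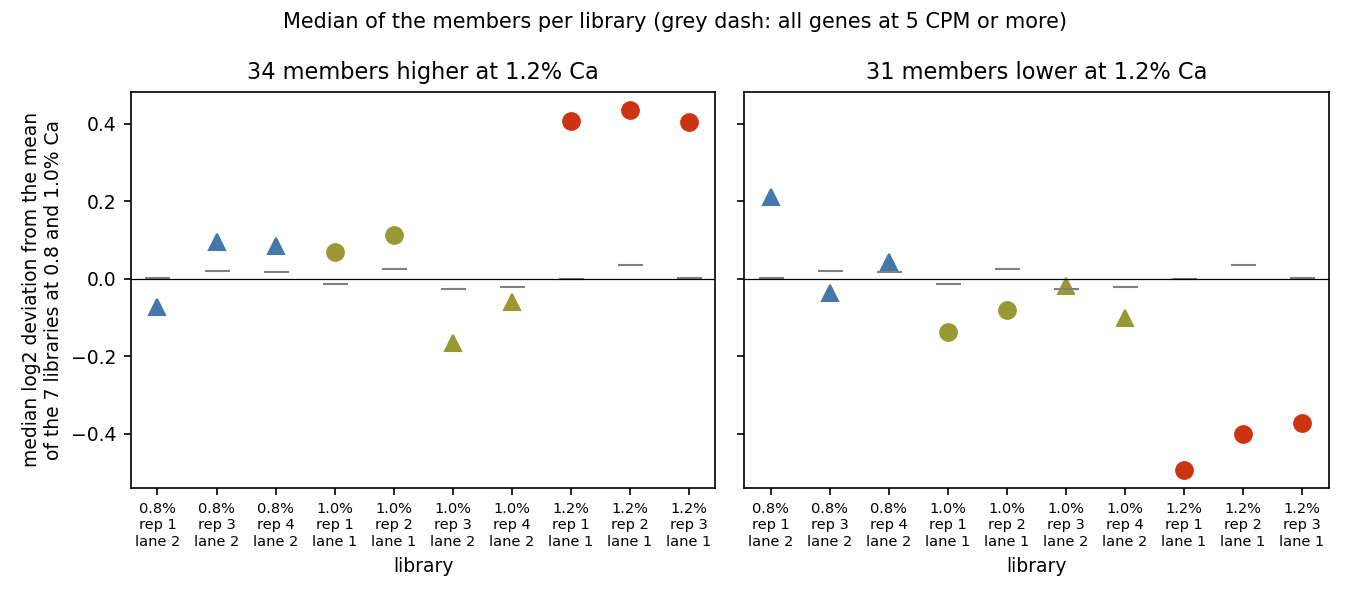
Median over the 34 higher genes (left) and the 31 lower genes (right) of the log2 deviation from the mean of the 7 libraries at 0.8 and 1.0% Ca, for each library, with circles for lane 1 and triangles for lane 2. Grey dashes give the median over all genes at 5 CPM or more. The higher genes are at 0.40 to 0.43 at 1.2% Ca and between -0.17 and 0.11 elsewhere, and the lower genes are at -0.49 to -0.37 at 1.2% Ca and between -0.14 and 0.21 elsewhere.

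Over the 7 libraries at 0.8 and 1.0% Ca, the genes of a set varied together only weakly. The median Pearson r over all pairs was 0.13 among the 34 higher genes, 0.10 among the 31 lower genes and -0.07 between the sets, against 0.01 over all pairs of the 10410 genes. These are descriptions over 7 libraries, and all genes in a library share its total and its lane. Replicate 1 at 0.8% Ca was the library farthest from 1.2% Ca in 14 higher and 13 lower genes, a count that was not made over all genes. Together with replicate 3 at 1.0% Ca, it formed the lowest pair of the 7 in 9 higher genes (26.5%, against 14.5% of all genes) and the highest pair in 10 lower genes (32.3%, against 14.6%). Among these lower genes was ENSGALG00000026565, with 160, 120 and 156 CPM at 0.8% Ca, 121, 120, 181 and 124 CPM at 1.0% Ca, and 89.4, 104 and 118 CPM at 1.2% Ca.

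The same rule turned to 0.8% Ca found more genes. It gave 346 genes with the 3 libraries at 0.8% Ca apart from the other 7, 298 on the higher side and 48 on the lower side, against the 34 and 31 genes found for 1.2% Ca. All libraries at 0.8% Ca were in lane 2 and all at 1.2% Ca in lane 1, and the part of lane in either count was not tested.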

How the data were processed

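Total RNA of 10 kidneys was made into poly(A) libraries and sequenced as read pairs. The deposited table holds raw counts of fragments per gene, which the authors made with HISAT2 2.0.4 on Galgal4 and featureCounts 1.5.0-p3 on Ensembl 84, without a strand option and without normalization. The sources call the kit stranded in the labels only.

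CPM was computed on column totals. The 65 genes and the gene lists were chosen with earlier results of these data known. Counting error alone is covered by the standard errors of the gaps, and 1 library per bird is the replicate. For 1.0% against 0.8% Ca, and for lane 1 against lane 2 at 1.0% Ca, edgeR 4.0.16 (R 4.3.3) was fitted to all 10 libraries with the filter filterByExpr, TMM scaling and quasi-likelihood tests, two-sided, with Benjamini-Hochberg adjustment over 12187 genes at 0.05. The groups were the 3 diets for the first comparison and, for the second, the diets with 1.0% Ca split by lane. log2 levels used a pseudocount of 0.5 CPM. Alternatives were DESeq2 1.42.0, limma-voom (limma 3.58.1), other scalings, filters and minimums, a replicate block and each library left out. The fits were also run on simulated data with planted changes. The share of these recovered is not given here, so that an absence of calls cannot be read as an absence of differences. Genes named are those with a name, the largest ratios, widest gaps and highest levels per kilobase in each set, those next to a threshold, and those next to each other on a chromosome. Genes of a low unadjusted p, ENSGALG00000004814 and ENSGALG00000026565 were taken up after their values were seen where that rule did not name them.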

Additional observations from a re-analysis of the deposited data

Results flagged for a closer look

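Within the 4 libraries at 1.0% Ca, 10 of the 65 genes had a highest or lowest library whose gap to the nearest of the others was too large a part of the group's range by Dixon's criterion at the 5% level. Chance alone marks about 1 in 20 groups. The criterion was applied to the 65 genes only. Without the share over all genes, the count cannot be read as a trait of these genes. Replicate 3 had the lowest alignment rate of all libraries in the study's read table, and the part of this was not tested. Replicate 3 was the marked library in 8 of the 10 genes. It was the highest in 6 genes that are lower at 1.2% Ca: ENSGALG00000007572 (60.7 CPM), ENSGALG00000009965 (17.2 CPM), ENSGALG00000006099 (44.9 CPM), ENSGALG00000006883 (24.8 CPM), ENSGALG00000026565 (181 CPM) and ENSGALG00000026662 (21.5 CPM). It was the lowest in 2 genes that are higher at 1.2% Ca: ENSGALG00000016583 (10.6 CPM) and ENSGALG00000026191 (4.63 CPM). GAL1 was highest in replicate 1, with 48.9 CPM, where the other 3 libraries held 20.2, 23.1 and 19.97 CPM. ENSGALG00000016783 was lowest in replicate 4, with 69.7 CPM, where the other 3 held 92.0, 91.1 and 91.5 CPM.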

How the results depend on the processing

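The choice of the 65 genes depended on the settings. With TMM scaling 33 higher and 43 lower genes met the rule, 28 and 29 of them shared with the 65, and with RLE 28 and 47, of which 25 and 29 were shared. Without a fold minimum there were 111 and 52 genes, and with 1.5-fold 9 and 10. Leaving out 1 library gave between 40 and 204 higher and between 32 and 219 lower genes, the most without a library at 1.2% Ca. Added after seeing the data, leaving out replicate 3 at 1.0% Ca and replicate 1 at 0.8% Ca together gave 56 and 71, and lane 1 alone gave 415 and 371, with 22 and 17 of the 65. Fewer libraries make the order easier to meet, whatever the diet or lane. In lane 1, 8.94% of all genes at 5 CPM or more lay above and 8.89% below without overlap. The step on 0.8% Ca and the exclusion by identifier were not applied to lane 1 alone. The ratio fell under 1.2 without some single library in 8 higher and 8 lower genes. For 1.0% against 0.8% Ca, the edgeR likelihood ratio test gave 22 and DESeq2 31 calls, and leaving out 1 library gave between 0 and 2 (2 without replicate 2 at 1.2% Ca). For the lanes, they gave 1 and 13. With the replicate number as a block (replicate block), the calls were 0 for the diets and 1 for the lanes. The study describes a completely randomized design. The deviations of libraries at 1.0 and 0.8% Ca with the same number correlated at 0.01, -0.36 and 0.32. Deviations from the means of so few libraries cannot decide whether the numbers pair the birds. With total counts in place of TMM, 451 genes were higher and 444 lower in lane 1 at an unadjusted edgeR p under 0.05. DESeq2 called ENSGALG00000002080 between the lanes. Leaving out 1 library moved the median log2 difference between the lanes to between 0.081 and 0.286 in the higher and between -0.112 and 0.0072 in the lower genes, and that of 1.2% minus 1.0% Ca within lane 1 to between 0.35 and 0.41 and between -0.38 and -0.28. The cause of these shifts was not tested. Counts of 20 to 40 per library limit what can be said of the genes near 5 CPM.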
